A study of Mus musculus with 10 samples.

Results

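Kcnk1 and Fndc5 were described in liver RNA of mice that received MI-883 or its vehicle. They are 2 of the 16647 genes counted, and both passed the minimum of 60 reads summed over the 10 livers. They were chosen by their raw counts in these same livers, as genes without a role in drug metabolism whose level was more than 4-fold higher after MI-883. Their difference between the groups is therefore given as a description, and no P is drawn from it.

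The control group was 5 male mice humanized for PXR, CAR and CYP3A4/3A7 that received the vehicle, 5% DMSO, 5% PEG300 and 90% corn oil, by gavage 3 times per week for 4 weeks. The MI-883 group was 5 male mice of the same genotype given 5 mg/kg of MI-883 in that vehicle on the same schedule. MI-883 is a ligand that activates human CAR and antagonizes human PXR. All 10 animals were 10 to 15 weeks old before a high-fat diet (HFD) that began 8 weeks ahead of dosing and was kept to the end, so every value belongs to HFD-fed livers that carry the human receptors in place of the mouse ones. Each library is a piece of whole liver from a separate animal, and a change in the number of cells of a type cannot be told apart from a change in RNA per cell. Between 23513665 and 36221514 reads per liver were counted on genes. Levels are given as CPM, reads scaled to a common library size with TMM normalization, and levels per length as RPKM, CPM divided by the exon length in kb. The expression of hepatocyte markers such as Alb and Ttr was high in all livers, where the 8 markers summed to 76006 to 87992 CPM in control and 63364 to 76325 CPM in MI-883 livers.

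Kcnk1 encodes TWIK-1, a potassium channel of the two-pore domain (K2P) family, whose subunits pair in the membrane and pass a background potassium current. TWIK-1 is held at low activity, in part by recycling through endosomes. Fndc5 encodes a membrane protein with a fibronectin type III domain, and its cleaved ectodomain, irisin, is best known as an exercise-linked factor from skeletal muscle whose gene is under PGC-1α there. Cyp2b10, a cytochrome P450 enzyme, is the classical target gene of CAR in mouse liver. CAR and PXR bind DNA with RXR at repeats of 6-letter half-sites related to AGGTCA.

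Kcnk1 (Entrez gene 16525) lies on the plus strand of chromosome 8 at positions 125993655 to 126030685 of GRCm38, with 3 exon blocks that together span 2235 bases. Fndc5 (Entrez gene 384061) lies on the plus strand of chromosome 4 at positions 129136870 to 129144593, with 6 exon blocks over 2763 bases. The 250 bases before an annotated start of each gene are shown, from the RefSeq promoter table for GRCm38.p6. They are given because both genes were higher with a CAR ligand and because the windows differ in base composition. Capitals mark half-sites, which were searched on either strand in 4 forms. One form is AGGTCA. Another is AGTTCA, with T in the middle. The form GGGTCA starts with G instead. The form GGTTCA combines both changes. The windows are chr8:125994852-125995101 and chr4:129136749-129136998, both on the plus strand.
Kcnk1: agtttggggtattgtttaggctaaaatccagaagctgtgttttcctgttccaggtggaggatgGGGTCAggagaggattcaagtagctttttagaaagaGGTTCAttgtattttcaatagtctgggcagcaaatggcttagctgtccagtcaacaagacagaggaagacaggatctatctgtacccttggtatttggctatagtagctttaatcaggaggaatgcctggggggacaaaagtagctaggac
Fndc5: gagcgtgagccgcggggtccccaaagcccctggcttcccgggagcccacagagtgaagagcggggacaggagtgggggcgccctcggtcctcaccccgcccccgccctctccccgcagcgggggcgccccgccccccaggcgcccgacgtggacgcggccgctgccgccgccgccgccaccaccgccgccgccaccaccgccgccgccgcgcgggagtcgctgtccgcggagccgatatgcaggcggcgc
The Kcnk1 window held a GGGTCA that begins 187 bases and a GGTTCA that begins 151 bases before the start, had 44.4% G and C and held 0 CpG. The Fndc5 window held 0 of these half-sites, had 80.8% G and C and held 38 CpG. Over 32851 windows of this length the median was 52.4% G and C and 6 CpG, and 0.861% of the windows reached the G and C share of Fndc5. Half-sites were frequent, since 38.6% of all windows held at least 1 of the 4 forms, with 14.0% for AGGTCA, 11.8% for AGTTCA, 11.6% for GGGTCA and 8.85% for GGTTCA. The DR4 arrangement, a pair of half-sites in the same direction with 4 bases between them, occurred in 0.0670% of windows and in neither of these. A match of letters is not evidence of binding. For both genes the RefSeq gene span begins at another position than the start used for the window, so other starts are annotated. The span of Kcnk1 begins at 125993655, so the whole Kcnk1 window lies inside it. The span of Fndc5 begins at 129136870, so the last part of the Fndc5 window lies inside it. Neither window is therefore purely sequence before the gene.

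In control livers Kcnk1 was near the lower end of what was counted. In control livers 1 to 5 the level was 0.754, 0.750, 1.76, 1.10 and 0.658 CPM, from 27, 24, 43, 38 and 15 reads. In MI-883 livers 1 to 5 it was 2.63, 10.1, 5.44, 17.1 and 27.7 CPM, from 77, 228, 147, 394 and 781 reads. Liver 5 was highest and liver 1 lowest among the treated animals, and every MI-883 liver stood above every control liver. The closest approach was MI-883 liver 1, at 1.498 times control liver 3. The mean was 1.004 ± 0.454 CPM (S.D., n = 5) in control and 12.6 ± 10.1 CPM (S.D., n = 5) in MI-883 livers, a log2 fold change of 3.66 with a standard error of 0.57.

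Fndc5 was lower than Kcnk1 on average in both groups. In control livers 1 to 5 it was 0.810, 0.812, 0.695, 0.348 and 0.351 CPM, from 29, 26, 17, 12 and 8 reads. In MI-883 livers 1 to 5 it was 2.36, 3.76, 1.41, 6.18 and 2.98 CPM, from 69, 85, 38, 142 and 84 reads. Here MI-883 liver 4 was highest and liver 3 lowest, and again the groups did not overlap. The lowest treated liver was at 1.73 times the highest control liver. The mean was 0.603 ± 0.237 CPM (S.D., n = 5) in control and 3.34 ± 1.81 CPM (S.D., n = 5) in MI-883 livers, a log2 fold change of 2.44 with a standard error of 0.39.

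**Figure D1:**
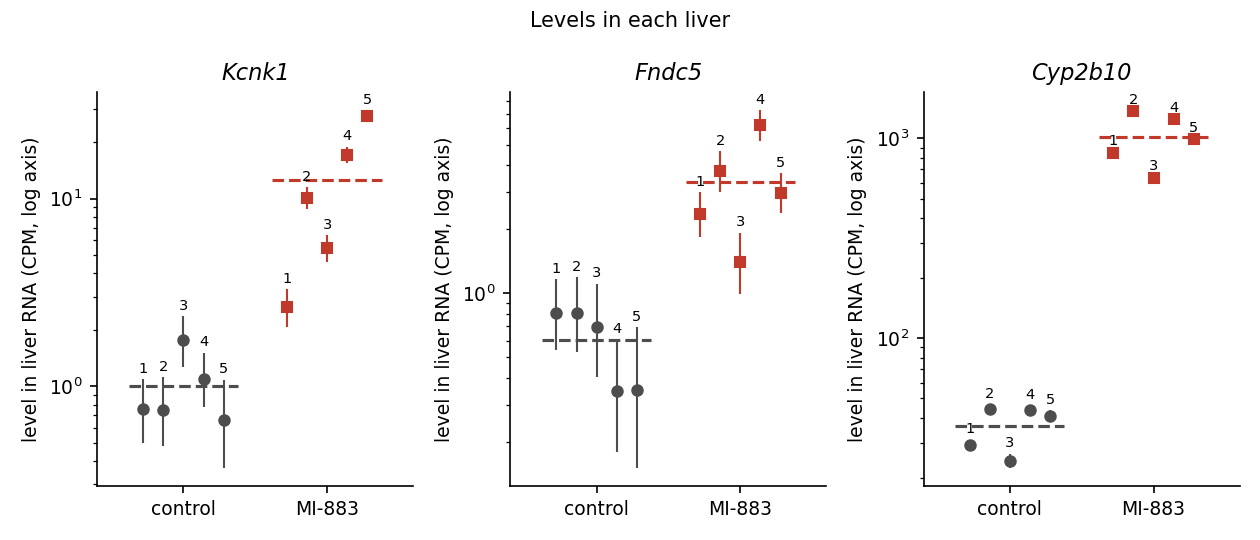
Level of Kcnk1, Fndc5 and Cyp2b10 in each of the 10 livers in CPM on log axes. Points are livers numbered by replicate, bars are 95% Poisson intervals of the read count and cover counting error only, and dashed lines are group means. All 5 MI-883 livers lie above all 5 control livers for each gene, and Kcnk1 spreads most among treated livers, from 2.63 to 27.7 CPM.

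Across all 13219 tested genes, 1.03% were called different by edgeR at an adjusted P under 0.05, 0.144% were called and over 4-fold higher in MI-883 livers, and 2.05% had every MI-883 liver above every control liver. The Wald test of DESeq2 called 3.50% of the genes. An unadjusted P under 0.05 by edgeR was found for 15.6% of them. Both genes are in all of these classes, which their selection on the same contrast brings with it, and nothing is read from it. By fold change Kcnk1 ranked 7 and Fndc5 ranked 24 among tested genes. At the edge of the rule, Asns, which encodes asparagine synthetase, was the called gene just above 4-fold (log2 fold change 2.05), and Tmprss7, a membrane serine protease gene, was just below it (1.97).

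The livers of a group differed more in these genes than in most genes. The coefficient of variation of Kcnk1 was 45.2% over the control and 79.9% over the MI-883 livers, and that of Fndc5 was 39.2% and 54.2%. The median over all tested genes was 11.6% in control and 12.8% in MI-883 livers, although low counts add to the spread. Counting error by itself would give 18.4% and 5.54% for Kcnk1 and 23.3% and 10.9% for Fndc5. Kcnk1 spread 10.5-fold from the lowest to the highest MI-883 liver. Cyp2b10 spread only 2.17-fold over the same livers.

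Per length, Kcnk1 was at 0.449 ± 0.203 RPKM in control and 5.64 ± 4.50 RPKM in MI-883 livers, and Fndc5 at 0.218 ± 0.0856 and 1.21 ± 0.654 RPKM (S.D., n = 5). By mean CPM, 87.2% of the tested genes were higher than Kcnk1 in control and 54.0% in MI-883 livers. For Fndc5 these shares were 91.7% and 76.5%, so it remained a gene of low abundance. Both genes were also not equally high in the same animals. The ratio of Kcnk1 to Fndc5 in CPM ran from 0.923 to 3.17 in control livers and from 1.12 in MI-883 liver 1 to 9.30 in MI-883 liver 5. With 3 reads taken as the limit of measurement, 0.0838 to 0.133 CPM in these libraries, both genes were above it in every liver.

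Cyp2b10 was used as the comparator for both genes in each animal. Its level was 29.2, 44.3, 24.4, 43.8 and 40.8 CPM in control livers 1 to 5 and 851, 1375, 634, 1249 and 989 CPM in MI-883 livers 1 to 5. Near-identical genes of the Cyp2b family can take reads from one another. Correlations with Cyp2b10 are described within each group, because a correlation over all 10 livers contains the difference between the groups. With 5 livers a group, a correlation is a description and was not tested. Within the groups 6 correlations are given, on log2 CPM, for 3 pairs of genes in each group.

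Fndc5 followed Cyp2b10 closely among the treated animals. Pearson's r was 0.90 and Spearman's rho 0.9, and 9 of the 10 pairs of livers were ordered alike for both genes. Liver 3 was lowest in both, and the single pair out of order was livers 2 and 4, where Cyp2b10 was higher in 2 and Fndc5 in 4. When each liver was left out in turn, r ranged from 0.77 to 0.98. Among all tested genes the median r with Cyp2b10 in MI-883 livers was 0.0156, the 5% and 95% points were -0.867 and 0.862, and 3.15% had an r at least as high as Fndc5. In control livers r was -0.49 and rho 0.1, with 5 of 10 pairs ordered alike, and r ranged from -0.91 (without liver 2) to -0.32 when each liver was left out.

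Kcnk1 followed Cyp2b10 less closely. In MI-883 livers r was 0.52 and rho 0.5, with 6 of 10 pairs ordered alike, and 24.97% of tested genes had an r at least as high. Liver 5, with the most Kcnk1, was midway among the treated animals for Cyp2b10, whereas liver 2, with the most Cyp2b10, was midway for Kcnk1. In control livers r was -0.60 and rho -0.5, with 3 of 10 pairs ordered alike. This negative value rested on control liver 3, which had the most Kcnk1 and the least Cyp2b10, as r was 0.28 without it. Over the control livers the median r of all tested genes was -0.0231, with 5% and 95% points of -0.799 and 0.788. The correlation between Kcnk1 and Fndc5 was 0.0828 in control and 0.570 in MI-883 livers, with 4 and 7 of 10 pairs ordered alike. No difference between any of these correlations was tested.

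**Figure D2:**
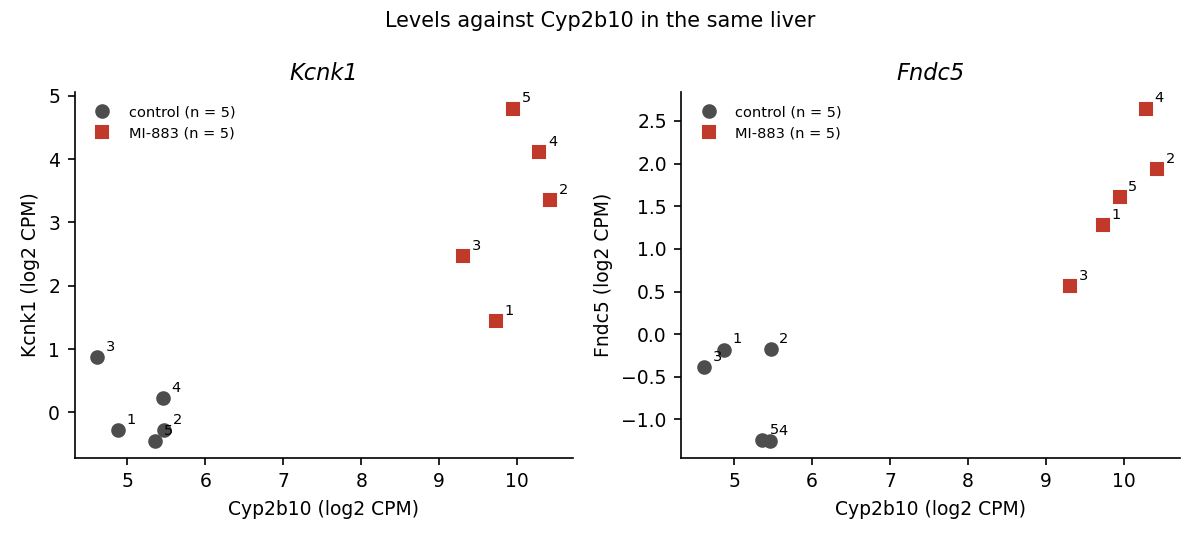
Kcnk1 (left) and Fndc5 (right) against Cyp2b10 in the same liver, as log2 CPM, with circles for the 5 control and squares for the 5 MI-883 livers, numbered by replicate. Among treated livers Fndc5 and Cyp2b10 order the livers alike except for livers 2 and 4 (r = 0.90), while Kcnk1 is more scattered (r = 0.52).

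The genes whose pattern over the 10 livers was most like that of each gene were taken from 11612 genes with a mean of at least 1 CPM. This likeness contains the group difference, and it is given without a test. For Kcnk1 the 5 most alike were Psmf1 (r = 0.963), a proteasome regulator, Cyp1a2 (0.962), a cytochrome P450 enzyme, Pik3cb (0.961), a catalytic subunit of PI3K, Gna14 (0.960), a G protein subunit, and Slc13a3 (0.954), a dicarboxylate transporter. The sizes differed widely, since Psmf1 was at 37.5 ± 1.01 and 41.9 ± 2.23 CPM in control and MI-883 livers (S.D., n = 5), and Gna14 at 2.43 ± 1.12 and 9.21 ± 5.21 CPM. Cyp2b10 was at rank 80 (0.877).

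For Fndc5 the 5 most alike were Fmo5 (r = 0.970), a flavin monooxygenase, Glul (0.969), which encodes glutamine synthetase, Abcc3 (0.948), an efflux transporter, Atp6v0a1 (0.942), a subunit of the vacuolar proton pump, and Chd1l (0.942), a chromatin remodeler. Glul was at 1095 ± 57.5 and 1325 ± 121 CPM in control and MI-883 livers (S.D., n = 5). Cyp2b10 was at rank 32 (0.898). None of the 5 genes most like Kcnk1 was among the 5 most like Fndc5.

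After the group means were taken out, the order was different. These genes too are the highest of 11612 by r over 10 livers, so a high r comes with the choice and was not tested. The genes most like Kcnk1 within the groups were then Slc25a42 (r = 0.959), a mitochondrial carrier of coenzyme A, Rgl3 (0.955), Chrna2 (0.940), a nicotinic receptor subunit, Myorg (0.935) and Mphosph9 (0.935), and Cyp2b10 was at rank 4046 (0.214). For Fndc5 they were Apba3 (0.969), Ints5 (0.946), a subunit of the Integrator complex, Nufip1 (0.932), Gemin8 (0.929), of the SMN complex, and Clpb (0.923), a mitochondrial chaperone, with Cyp2b10 at rank 2270 (0.365). None of these 10 genes passed the test between the groups, with adjusted P from 0.385 (Myorg) by edgeR and no unadjusted P under 0.05 by it.

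Kcnk1 was next compared with the rest of its family. Of the other 10 K2P genes in the table, 6 were tested and 0 were called by edgeR, 0 of the 6 had an unadjusted P under 0.05, and 0 were called by DESeq2. Their median log2 fold change was 0.22, compared with 0.00451 over all tested genes. Kcnk5, which encodes the pH-sensitive channel TASK-2, was the most abundant family member. It was at 13.9 ± 6.19 RPKM in control and 16.0 ± 2.87 RPKM in MI-883 livers (S.D., n = 5), with an adjusted P of 0.746 by edgeR. Kcnk6, which encodes TWIK-2, the closest relative of TWIK-1, was at 0.543 ± 0.133 and 0.684 ± 0.227 RPKM, with an adjusted P of 0.516.

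Per length, the order below Kcnk5 in control livers was Kcnk6 (0.384 to 0.715 RPKM), Kcnk1 (0.294 to 0.786 RPKM), Kcnk13, Kcnk3, Kcnk10 and Kcnk4, the last 4 with means from 0.246 down to 0.0823 RPKM, and each overlapped its neighbours in this order. In MI-883 livers Kcnk1, at 1.18 to 12.4 RPKM, stood above every liver of Kcnk6, at 0.461 to 0.936 RPKM, and remained below Kcnk5, at 13.2 to 20.4 RPKM. The remaining 4 genes, Kcnk2, Kcnk7, Kcnk12 and Kcnk18, had at most 11 reads in any liver. Of 58 other potassium channel genes in the table, 20 were tested and 0 were called by edgeR. Their median log2 fold change was 0.12, 2 had an unadjusted P under 0.05 and DESeq2 called 0 of them. These 2 genes, named after their values were seen, were Kcnj2, an inward rectifier (log2 fold change 0.83, adjusted P = 0.209), and Kcnn4, a calcium-activated channel (1.01, adjusted P = 0.218).

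**Figure D3:**
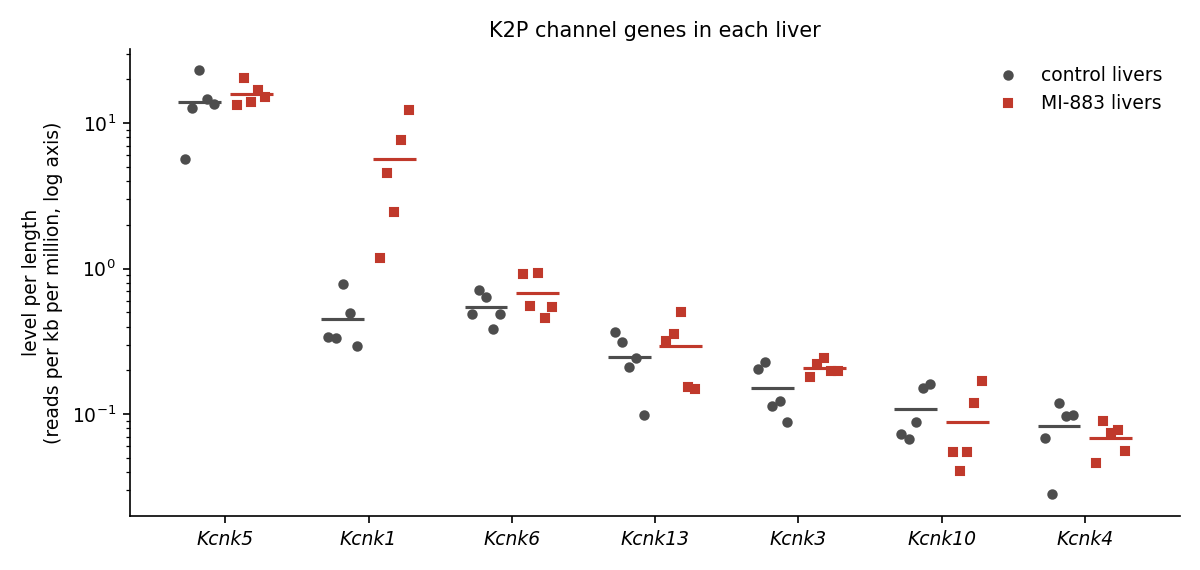
Level per length of the 7 tested K2P genes in each liver, in RPKM on a log axis. Circles are control and squares MI-883 livers, with lines at the group means. Kcnk1, which was chosen for its rise in these same livers, is the member whose 2 groups do not overlap. Its place moves from the range of Kcnk6 to between Kcnk6 and Kcnk5, which is given as a description.

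Genes known to act on the TWIK-1 channel were counted in the same way. With 1.03% of all tested genes called by edgeR, a count of 0 in a list of this size is at the background. This list held, among others, the protease gene Senp1, Arf6 and its exchange factor gene Psd, and the endosomal recycling genes Rab4a and Rab11a. All 7 were tested, 0 were called by edgeR, 0 had an unadjusted P under 0.05 and 0 were called by DESeq2. Rab4a had a log2 fold change of 0.05 and Rab11a of -0.09. The list of sodium and potassium homeostasis held, among others, subunits of the sodium pump and cation-chloride cotransporters. All 11 were tested and 0 were called by edgeR, 0 had an unadjusted P under 0.05 and 0 were called by DESeq2.

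Fndc5 was compared with the other 10 genes named for a fibronectin type III domain, of which 4 were tested. None of the 4 was called by edgeR (0 genes), but 2 had an unadjusted P under 0.05 and both were called by DESeq2, beside 15.6% and 3.50% of all tested genes. With 4 genes nothing is read from these shares. Their median log2 fold change was 0.26. Fndc3b was at 23.05 ± 1.81 and 30.7 ± 4.42 CPM in control and MI-883 livers (S.D., n = 5), a log2 fold change of 0.41 with an adjusted P of 0.0764 by edgeR. In 4 of the 5 MI-883 livers it was above all control livers, while liver 4, at 23.1 CPM, was within the control range. Fndc4, whose product is the closest relative of FNDC5, was at 32.5 ± 2.37 and 27.2 ± 2.03 CPM, with a log2 fold change of -0.26 with an adjusted P of 0.120. Fndc3a was at 58.8 ± 3.10 and 62.9 ± 5.53 CPM (adjusted P = 0.545). Fndc10 spread from 0.286 to 2.47 RPKM over the control livers.

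Per length, Fndc5 was the lowest of the 5 tested family members in control livers. Its highest control liver, 0.294 RPKM, was just above the lowest control liver of Fndc10, 0.286 RPKM. In MI-883 livers Fndc5, at 0.509 to 2.24 RPKM, overlapped Fndc10, at 0.508 to 2.37 RPKM, and Fndc3b, at 2.02 to 3.01 RPKM. Fndc4 was at 8.17 to 9.92 RPKM and was the most abundant.

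Genes known to act with irisin in other tissues were counted next, against the same 1.03%. Upstream of Fndc5, Ppargc1a, which encodes PGC-1α, was at 8.92 ± 0.621 and 7.81 ± 1.42 CPM in control and MI-883 livers (S.D., n = 5), a log2 fold change of -0.19 with an adjusted P of 0.467 by edgeR. For the related coactivator gene Ppargc1b the log2 fold change was -0.40 (adjusted P = 0.337) and for the nuclear receptor gene Esrra it was -0.11 (adjusted P = 0.513). All 7 genes of this group (with Esrrg, Ppara, Creb1 and Smad3) were tested, 0 were called by edgeR, 0 had an unadjusted P under 0.05 and 0 were called by DESeq2. In Creb1, which encodes a cAMP-responsive factor, every MI-883 liver was below every control liver. The levels were 15.2 ± 0.498 and 14.0 ± 0.768 CPM in control and MI-883 livers (adjusted P = 0.411 by edgeR). It was the 1 gene of these 7 without overlap, beside 526 of all 13219 tested genes in either direction, and nothing is read from it. The integrin genes of the irisin receptor were Itgav, at 24.7 ± 3.06 and 24.3 ± 3.58 CPM, and Itgb5, at 82.7 ± 7.87 and 87.8 ± 8.26 CPM, and with Itgb1 0 of 3 were called by edgeR, 0 had an unadjusted P under 0.05 and 0 were called by DESeq2.

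Of 8 genes known to respond to irisin in fat or brain, 6 were tested, 0 were called by edgeR, 1 had an unadjusted P under 0.05 and DESeq2 called 0. The one gene was Elovl3, a fatty acid elongase gene, at 87.8 ± 20.2 and 116 ± 26.1 CPM in control and MI-883 livers (adjusted P = 0.291). Bdnf, a neurotrophin gene, was at 2.65 ± 0.350 and 2.65 ± 0.595 CPM. Cidea, a lipid droplet protein gene, was at 68.1 ± 11.7 and 65.2 ± 19.0 CPM. Ucp1, the uncoupling protein gene of brown fat, had at most 3 reads in any control liver and was not tested, like Dio2.

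**Figure D4:**
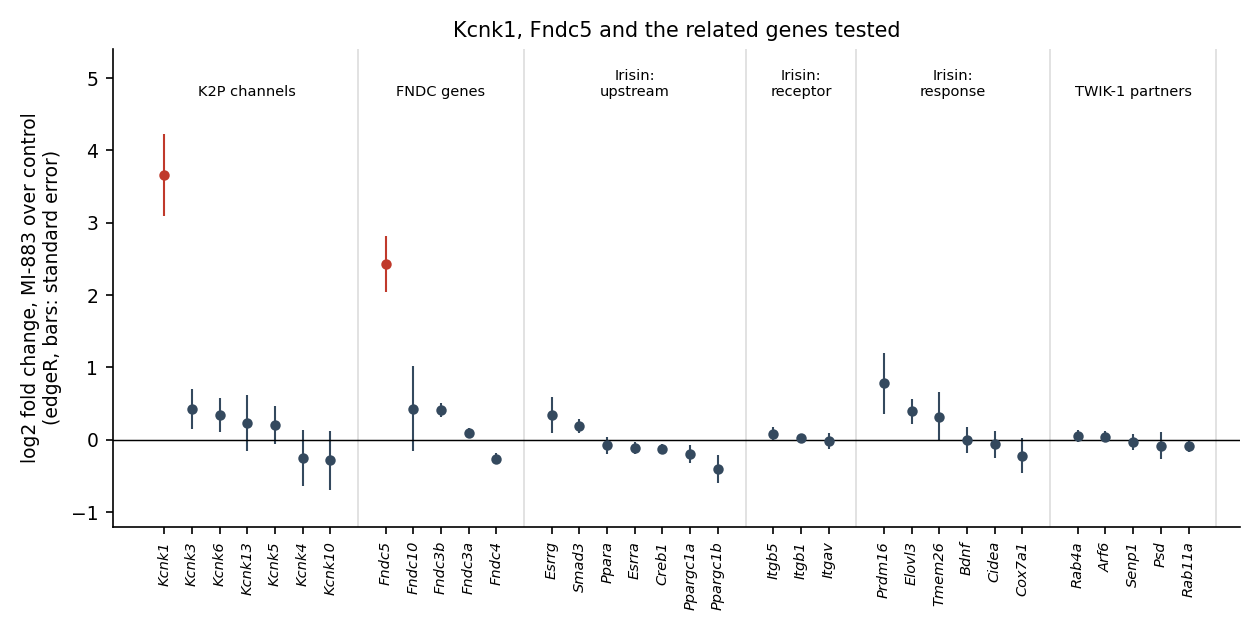
Log2 fold change of MI-883 over control livers by edgeR with its standard error for Kcnk1, Fndc5 and most tested genes of the lists named above the points. Kcnk1 (3.66) and Fndc5 (2.44) were chosen for their height on this axis, and the genes drawn beside them lie between -0.40 and 0.78.

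The nearest genes on the chromosome were tested as well. Of the 5 tested genes on each side of Kcnk1 and of Fndc5, 20 in all, 0 were called by edgeR, 3 had an unadjusted P under 0.05, near the 15.6% over all tested genes, and DESeq2 called 0. Their median log2 fold change was -0.01. S100pbp lies 3.41 kb after Fndc5 and had means of 2.35 and 2.60 CPM in control and MI-883 livers, with a log2 fold change of 0.14 (adjusted P = 0.793). Map3k21, a kinase gene 46.2 kb before Kcnk1, was at 6.23 and 5.11 CPM, with a log2 fold change of -0.29 (adjusted P = 0.308). Azin2, which encodes an antizyme inhibitor and lies 174 kb before Fndc5, was lower in every MI-883 liver than in any control liver. It was at 2.06 ± 0.473 and 1.23 ± 0.308 CPM (S.D., n = 5), without passing the test of edgeR (adjusted P = 0.142). Among the 20 neighbours it was the 1 without overlap, beside 526 of all 13219 tested genes in either direction.

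The other genes beside Kcnk1 were Ntpcr, Map10, Sipa1l2 and Tsnax before it and Coa6, Tarbp1, Irf2bp2, Tomm20 and Rbm34 after it, with log2 fold changes from -0.25 to 0.17. Those beside Fndc5 included Rnf19b, Trim62 and Zfp362 before it and Yars, C77080, Rbbp4 and Zbtb8os after it, with log2 fold changes from -0.16 to 0.25.

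**Figure D5:**
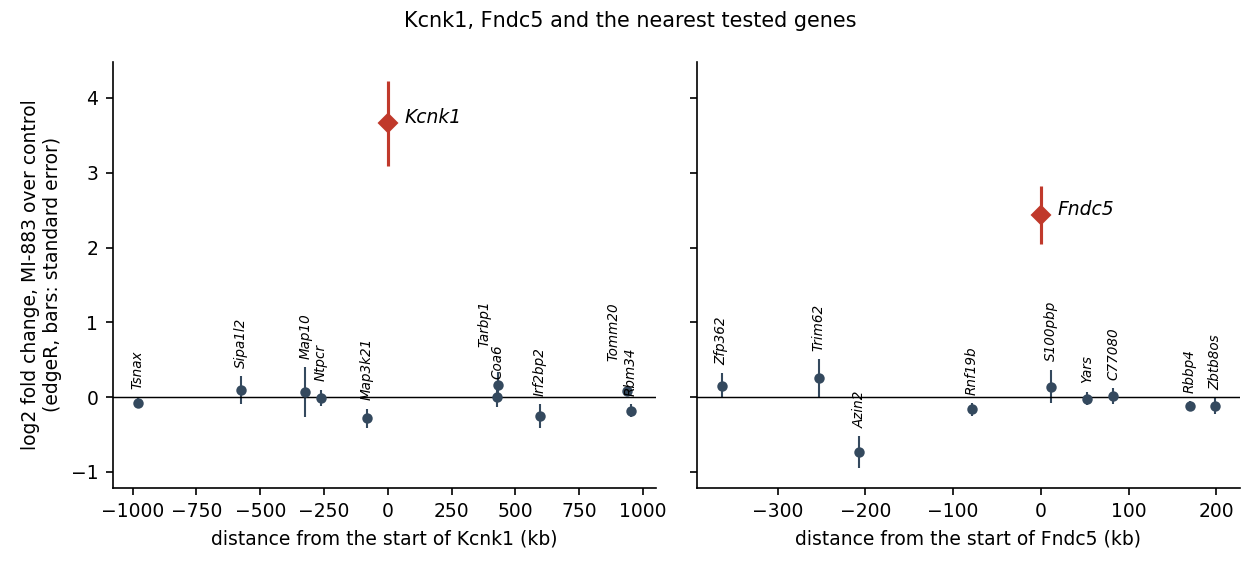
Log2 fold change by edgeR with its standard error for Kcnk1 (left) and Fndc5 (right) and most of the 5 nearest tested genes on each side, against the distance of each gene from the start of the member in kb. The neighbours drawn lie between -0.74 (Azin2) and 0.25, and Kcnk1 (3.66) and Fndc5 (2.44) were chosen for their height on this axis.

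None of the 2235 stretches of 100 bases in the Kcnk1 transcripts, and 0 of 2664 in those of Fndc5, occurred in transcripts of another gene. An antisense gene, Gm45875, overlaps 179 exonic bases at the end of Kcnk1. The study's methods name a directional library kit, but the strand setting of the counting is not given in the sources used here. From the counts, reads of Kcnk1 and Gm45875 can therefore not be told apart in that overlap.

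Kcnk1 is also expressed in kidney and brain, and Fndc5 in muscle and brain, so markers of these tissues were read beside them. Of 75 markers of 12 tissues or cell types, 46 were tested and 0 were called by edgeR, 15 had an unadjusted P under 0.05 (15.6% of all tested genes did), and DESeq2 called 2 (Apoa1 of hepatocytes and Cdh5 of endothelium). As a share, 32.6% of these markers had an unadjusted P under 0.05. The groups did not overlap in 3 of the 46, with Ttr and Apoa1 lower and Cdh5 higher in MI-883 livers. Over all tested genes this held for 526 of 13219 in either direction. All 8 hepatocyte markers had a negative log2 fold change, with a median of -0.26, and 4 of the 8 had an unadjusted P under 0.05 by edgeR. For skeletal muscle, 7 of 10 markers were in the table and 5 of them had 3 reads or fewer in every liver, with Ckm and Myh1 at or near 0. Their sum was 0.642 to 1.19 CPM in control and 0.783 to 1.24 CPM in MI-883 livers. The 6 heart muscle markers summed to 0.526 to 1.41 and 0.664 to 0.957 CPM. All 7 neuron and glia markers were in the table. They summed to 13.8 to 16.0 CPM in control and 16.6 to 19.9 CPM in MI-883 livers, ranges that do not overlap. Most of this sum was Syt1, at 10.1 ± 1.38 and 13.1 ± 1.27 CPM (S.D., n = 5), and Syt1 itself overlapped between the groups. All 5 tested genes of this list had a higher mean in MI-883 livers, 2 with an unadjusted P under 0.05. These were Syt1, a synaptic vesicle gene (log2 fold change 0.37, adjusted P = 0.134 by edgeR), and Rbfox3, a neuronal splicing factor gene (0.56, adjusted P = 0.284). Snap25, another neuronal gene, had at most 1 read. The part of these markers in the Kcnk1 and Fndc5 levels was not tested.

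Reads of kidney tubule markers were uneven among the MI-883 livers. Of 5 markers, 4 were in the table, 2 were tested and 0 were called by edgeR, both had an unadjusted P under 0.05 (adjusted P = 0.140 for Slc34a1 and 0.164 for Lrp2) and DESeq2 called 0. The 4 markers summed to 0.196 to 0.858 CPM in control and 0.444 to 7.21 CPM in MI-883 livers. Slc34a1, a phosphate transporter gene of the proximal tubule, had 0 to 10 reads in control livers and 3, 109, 52, 10 and 8 reads in MI-883 livers 1 to 5. Lrp2, an endocytic receptor gene of the same tubule, had 7, 5, 18, 10 and 4 reads in control livers 1 to 5. It had 9, 41, 28, 9 and 46 reads in MI-883 livers 1 to 5. Liver 5, which also had the most Kcnk1, had the most Lrp2 reads. Scaled to library size, Lrp2 was highest in MI-883 liver 2, at 1.81 CPM. Umod, of the loop of Henle, had at most 2 reads in control and 0, 9, 23, 4 and 1 reads in MI-883 livers. The log2 fold change without MI-883 livers 2 and 3 was 3.99 for Kcnk1 and 2.64 for Fndc5, and the part of kidney RNA in either was not tested. Cholangiocyte markers summed to 25.1 to 117 CPM in control and 35.2 to 190 CPM in MI-883 livers, mostly from Spp1 (log2 fold change 0.83, adjusted P = 0.491), and their part was not tested. The other lists overlapped between control and MI-883 livers in their sums. Endothelial markers were at 87.0 to 115 and 94.4 to 125 CPM, and stellate cell markers at 203 to 312 and 223 to 366 CPM. As single genes, 3 of 5 endothelial and 2 of 5 stellate cell markers had an unadjusted P under 0.05 by edgeR. Of tested cholangiocyte markers 1 of 5 did, with all 5 log2 fold changes positive, and of macrophage and lymphocyte markers 0 of 5 each. Macrophage markers were at 179 to 267 and 137 to 317 CPM, and lymphocyte markers at 1.40 to 3.56 and 1.59 to 2.61 CPM. Brown fat markers were at 66.8 to 101 and 54.3 to 119 CPM. That sum was mostly Cidea (means 68.1 and 65.2 CPM) and Fabp4 (17.8 and 27.2 CPM). Ucp1, Adipoq and Plin1 of the same list had at most 4 reads in any liver. Pancreatic acinar markers were at 13.7 to 23.1 and 15.3 to 26.4 CPM. Only 2 of 7 acinar markers were in the table, and nearly all of their sum was Cela1, as Cpa1 had at most 1 read.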

How the data were processed

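Liver RNA of 5 control and 5 MI-883-treated mice was sequenced. Per the study's methods, the authors aligned the reads using STAR and assigned them to genes by featureCounts, and the submitters' processing notes also name fastp 0.23.0 and the mm10 build. The authors deposited raw counts per gene under Entrez numbers, without normalization, and 16644 of 16647 were matched to RefSeq symbols (GRCm38.p6). Versions of STAR and featureCounts, the annotation and the strand setting are not given in the sources used here. All count columns were used. Exon lengths came from the GENCODE annotation of GRCm38.

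The 13219 genes whose counts over the 10 livers reached 60 in sum were fitted with edgeR 4.0.16 in R 4.3.3 (TMM, quasi-likelihood test, Benjamini-Hochberg adjustment over all tested genes, threshold 0.05). DESeq2 1.42.0 was an alternative, with other normalizations and filters, the replicate number as a block and each liver left out. Standard errors of edgeR fold changes were derived as the absolute log2 fold change over the square root of the F statistic of that test. For Kcnk1 and Fndc5 they come from the contrast that chose these genes and are a description. Log2 CPM used a prior count of 2. The fit was tested on simulated data. Kcnk1, Fndc5, the gene lists and the markers were chosen with earlier results of these data known. Genes were named where they were Kcnk1, Fndc5 or Cyp2b10, called or at a mean of at least 1 CPM in the K2P, FNDC, irisin, TWIK-1 and ion lists (some as a range), one of the 5 nearest tested neighbours on each side, one of the 5 most alike by r, next to the 4-fold limit, or a defining marker. P-values set the difference between the groups against the spread between animals. Limits of 3 counts and 95% Poisson intervals cover counting error only. A few list members and neighbours are not reported here.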

Additional observations from a re-analysis of the deposited data

Results flagged for a closer look

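Among 78 genes of the lists and comparisons, 156 groups of 5 livers were checked for a liver far from the other 4, and 6 were found where chance gives about 7.8. None of the 6 was in Kcnk1 or Fndc5. Of genes that surround them, Fndc10 was at 5.28 CPM in control liver 1 against 1.84 CPM in the next liver, and Tmem26, an irisin response gene, at 2.18 against 1.25 CPM in the same liver. In MI-883 liver 4, which had the most Fndc5, Creb1 was lowest at 12.7 CPM against 14.1 CPM in the next liver, Slc12a4, a cotransporter gene, was highest at 28.1 against 25.4 CPM, and Tsnax, a neighbour of Kcnk1, was highest at 48.5 against 42.8 CPM. Slc13a3, whose pattern was among those most like Kcnk1, was lowest in control liver 5 at 16.2 against 21.0 CPM.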

How the results depend on the processing

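Kcnk1 and Fndc5 were over 4-fold higher in MI-883 livers under all 17 alternatives that gave a value. Both were chosen for this rise in the same counts, so this is a description and no support for the rise. The log2 fold changes were 3.14 to 3.92 for Kcnk1 and 2.10 to 2.63 for Fndc5 when each liver was left out in turn. With 60 counts required in every liver neither gene had a value, since neither reached it. The study's methods name a minimum of 60 counts in all samples, a filter that neither gene passes if it is read per liver. The replicate numbers share only a number (correlations of deviations between same-numbered livers 0.36, -0.12, -0.10, 0.076 and 0.079), and with a replicate block the log2 fold changes were 3.31 and 2.36 and 89 genes were called, compared with 136. DESeq2 called 463 genes, 2 FNDC genes and 2 markers. Total counts in place of TMM called 1 marker (Apoa1). Leaving out each liver gave 62 (without MI-883 liver 5) to 208 called genes (without control liver 1), with 87, 81, 75 and 68 without control livers 2 to 5 and 70 without MI-883 liver 2. It gave 0 to 1 FNDC genes, the 1 being Fndc3b without MI-883 liver 4. Without MI-883 livers 2 and 3 (chosen after seeing the data) 54 genes were called. The fits without a liver hold fewer animals than the main fit, and the cause of the differences between these counts was not tested.

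For the correlations with Cyp2b10, linear CPM gave 0.344 for Kcnk1 and 0.797 for Fndc5 in MI-883 livers. Leaving out each liver gave -0.83 to 0.28 (Kcnk1, control, the positive value without liver 3), 0.43 to 0.68 (Kcnk1, MI-883), -0.91 to -0.32 (Fndc5, control) and 0.77 to 0.98 (Fndc5, MI-883), and the cause was not tested. The 0 counts of called K2P genes, other potassium channel genes, neighbours and irisin, TWIK-1 and ion genes stayed at 0 under every alternative run. With 8 to 43 reads per control liver, counting error is a part of the spread of both genes there. By itself it would give 18.4% for Kcnk1 and 23.3% for Fndc5, beside coefficients of variation of 45.2% and 39.2%.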
